A study of Arabidopsis thaliana with 16 samples.

Results

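The root response to ethylene was followed across 19639 loci of *Arabidopsis thaliana* Col-0, the wild-type accession. Of 35814 loci in the deposited root table, 1729 named no gene, and the 19639 members were those with a gene name, an accepted estimate in the authors' table and at least 1 FPKM in ethylene or in air. FPKM is a fragment count corrected for transcript length and library size, so levels of different genes can be compared per length. All seedlings were dark-grown for 3 days. The ethylene group then received 10 ppm ethylene in hydrocarbon-free air for 4 h, and the air group received hydrocarbon-free air alone for the same 4 h. Root RNA was selected for poly(A) and sequenced from directional libraries, 2 per group, and the table gives 1 pooled FPKM per group. No library's own value was used here, so no level has an SD, no difference has a replicate check, and no p-value is given. The *cbp20* roots and Col-0 shoots of the same study, each with 2 libraries of ethylene and 2 of air, were separate samples and were used only to see whether a ratio recurred. The *cbp20* mutant is defective in a subunit of the complex that binds the cap of nuclear RNA.

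Ethylene is a gaseous hormone made from methionine by ACC synthases and ACC oxidases. Its receptors and the kinase CTR1 repress the pathway in air, and binding of the gas releases EIN2 and stabilizes the transcription factors EIN3 and EIL1. These turn on ERF genes and also feedback genes such as receptors and the F-box gene *EBF2*. In roots of dark-grown seedlings the hormone is known to stop cell elongation and to promote root hairs.

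A gene is said to have risen when its FPKM in ethylene was at least 2 times that in air, and to have fallen when it was at most 1 in 2 of that in air. By this rule 1998 loci (10.2% of the members) rose and 1795 (9.14%) fell. Among the 16448 loci of 1 gene 8.33% rose and 8.2% fell, and among the 11952 members with at least 10 FPKM in the higher group 7.2% rose and 6.16% fell. The median log2 ratio was 0.01, which the scaling of groups within the table can set by itself, and the quartiles were -0.35 and 0.38. The share that passed depended on the level. Of 1631 members at 1 to 2 FPKM in the higher group, 22.9% rose and 20.1% fell, against 4.94% in each direction among 4152 members at 20 to 50 FPKM. Zeros were present too, as 176 members were listed at 0 in ethylene and 268 at 0 in air, and no fold is given for these. Gene names of 19596 of the 19753 identifiers in the members were matched to the RefSeq annotation.

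The tissue label was checked against marker lists. Root and shoot values were normalized separately, so small gaps carry little weight, such as that of *SHR* in air (17.1 FPKM in roots, 15.3 FPKM in shoots). All 11 loci of a root marker list, among them the root hair genes *EXPA7* and *COBL9*, were higher in air-treated Col-0 roots than in air-treated Col-0 shoots, and 0 of 12 shoot marker loci were. Summed over the 12 shoot marker loci, the roots held 199 FPKM in ethylene and 328 FPKM in air, whereas Col-0 shoots held 15609 FPKM in ethylene and 17947 FPKM in air. The root marker sum separated the tissues less, at 9251 FPKM in ethylene and 11064 FPKM in air in Col-0 roots and 5911 and 9312 FPKM in Col-0 shoots. *PYK10*, which makes up most of it, stood at 7475 FPKM in ethylene and 9079 FPKM in air in roots, while shoots had 5500 FPKM in ethylene and 8894 FPKM in air. *STM*, a defining gene of the shoot meristem, was listed at 0 in Col-0 roots in ethylene and in air.

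**Figure D1:**
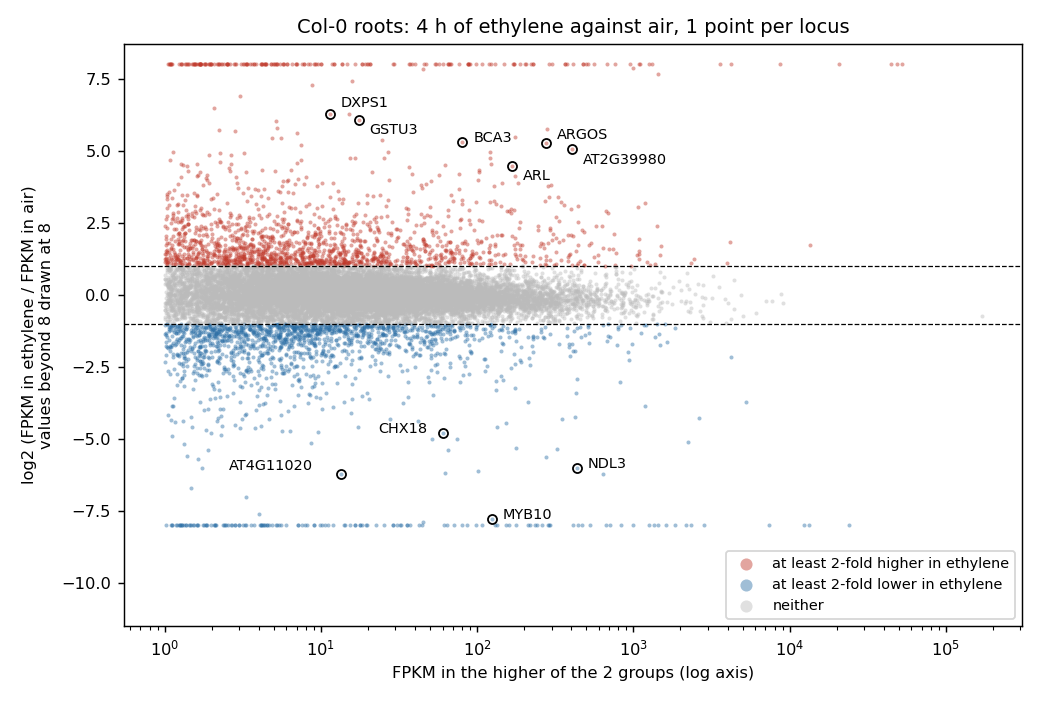
Each point is 1 member with both values above 0. The horizontal axis is the FPKM in the higher group on a log axis and the vertical axis the log2 ratio of ethylene to air, with dashed lines at 2-fold and values beyond 8 drawn at 8. Circles mark 10 of the largest changes at loci of 1 gene, from *DXPS1* (log2 ratio of 6.27) to *MYB10* (log2 ratio of -7.78), and the cloud narrows toward high levels.

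Genes of root hair growth rose together with genes of the ethylene pathway itself, and the upstream sequences of root hair genes are shown first because a known element could be searched in them. The root hair element is a short sequence described from promoters of genes used in hair-forming cells. It was searched on both strands in the 250 bases before each gene start, read from the RefSeq assembly TAIR10.1. It was found in 130 of 16224 windows of single-gene loci (0.801%), in 21 of 1326 windows of genes that rose (1.58%) and in 15 of 1311 of genes that fell (1.14%). In the root hair growth list it stood in 8 of 19 windows of genes that rose (42.1%, Wilson 95% interval 23.1% to 63.7%) and in 0 of 10 windows of genes that neither rose nor fell. The element was chosen after the root hair genes had been seen to rise. The genes called *RHS* were named in a search that used this element, so its presence there is not independent of their place in the list. Since the element was described from promoters of hair genes, its presence in other genes of the list may not be independent either. The interval treats the genes as independent and does not cover this. The 8 windows of 30 bases follow, 5′ to 3′ on the strand of the gene, with the element in capitals.
PRP1: cttttaATCGTGCATAACACTATtacaatc
LRX1: ctctaggAACGTGCGTCCAAGTTtgaggaa
RHS18: tactataTCCATGAACGCACGTTagagaat
RHS13: cacactATAATGCGACTCACGTCgggacaa
MRH6: tttattTTCATGGCAAGCACGTTcaagaaa
RHS15: ctgttctTACGTGCGGGCACAAAcgataga
EXPA18: caaaacaAACATGAACGCACGTCcattact
EXPA7: aaaaggATAGTGATCCGCACGTAgccacca

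On TAIR10.1 these windows lie at chr1:20504766-20504795 for *PRP1*, chr1:4069892-4069921 for *LRX1*, chr5:7426211-7426240 for *RHS18*, chr4:993226-993255 for *RHS13*, chr2:1132041-1132070 for *MRH6*, chr4:12920629-12920658 for *RHS15*, chr1:23331516-23331545 for *EXPA18* and chr1:4276421-4276450 for *EXPA7*. *RHS13* is on the minus strand and the other genes are on the plus strand. The element ended between 24 bases (*EXPA18*) and 193 bases (*RHS13*) before the gene start. In *PRP1*, *LRX1* and *RHS15* it was read on the strand opposite to the gene. Shorter motifs were searched in the same windows. ATGTA, the core of EIN3 sites, was in 53.9% of the windows of genes that rose, 52.5% of those that fell and 52.3% of all. GCCGCC, bound by ERF proteins, was in 2.19%, 1.68% and 1.89% of these windows. The G box CACGTG was in 5.43% of the windows of genes that rose, 10.5% of those that fell and 7.53% of all. AACGG, a core bound by MYB factors, was in 21.0%, 19.6% and 21.8% of them. All were searched on both strands, and a match is not a bound site.

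In the root hair growth list 21 of 33 loci rose and 0 fell, where 10.2% of all members rose, and the median log2 ratio was 1.31 against 0.01 over all members. *XTH26*, a xyloglucan-modifying enzyme of growing hairs, was at 77.0 FPKM in ethylene and 6.10 FPKM in air. *PRP1*, a proline-rich wall protein (chromosome 1, 20505000 to 20506488 in TAIR10), rose 10.5-fold to 328 FPKM in ethylene, against 31.3 FPKM in air. *LRX1*, an extensin with leucine-rich repeats that shapes the hair wall, was at 67.5 FPKM in ethylene and 14.7 FPKM in air, and its close relative *LRX2* at 22.2 and 8.88 FPKM. The largest rises of the list were thus those of wall genes.

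Of the genes named root hair specific, *RHS18* (135 FPKM in ethylene and 32.4 FPKM in air) and *RHS19* (412 and 101 FPKM) encode peroxidases. *RHS12* rose to 67.2 FPKM in ethylene, against 18.9 FPKM in air, *RHS13* to 440 against 133 FPKM, *RHS2* to 17.9 against 5.58 FPKM and *RHS15* to 51.7 against 17.4 FPKM. *RHS10* was at 40.8 FPKM in ethylene and 13.1 FPKM in air, but its locus joins a neighbouring gene. *RHS16*, at 16.5 FPKM in ethylene and 10.0 FPKM in air, did not reach 2-fold.

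Genes for the machinery inside the hair were in part called. *COW1*, a phosphatidylinositol transfer protein of hair tips, rose to 52.8 FPKM in ethylene, against 21.1 FPKM in air. *MRH2*, a kinesin-like protein, rose to 8.46 against 3.30 FPKM and *IRE*, an AGC kinase of hair elongation, to 6.15 against 3.03 FPKM. *MRH6* was at 37.8 FPKM in ethylene and 12.7 FPKM in air. The NADPH oxidase gene *RHD2*, which makes the reactive oxygen needed for tip growth, was at 20.3 FPKM in ethylene and 13.9 FPKM in air. *CSLD3*, a cellulose synthase-like gene, was at 41.7 and 31.2 FPKM, *SCN1*, a GDP dissociation inhibitor of ROP GTPases, at 97.2 and 77.5 FPKM, and *RHD3*, a GTPase that shapes the endoplasmic reticulum, at 86.7 and 81.1 FPKM. The actin gene *ACT2* was at 1038 FPKM in ethylene and 1106 FPKM in air. Genes used in many cell types besides hairs, such as *ACT2* and *RHD3*, were at the bottom of the list, as the plot of the root hair genes shows.

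**Figure D2:**
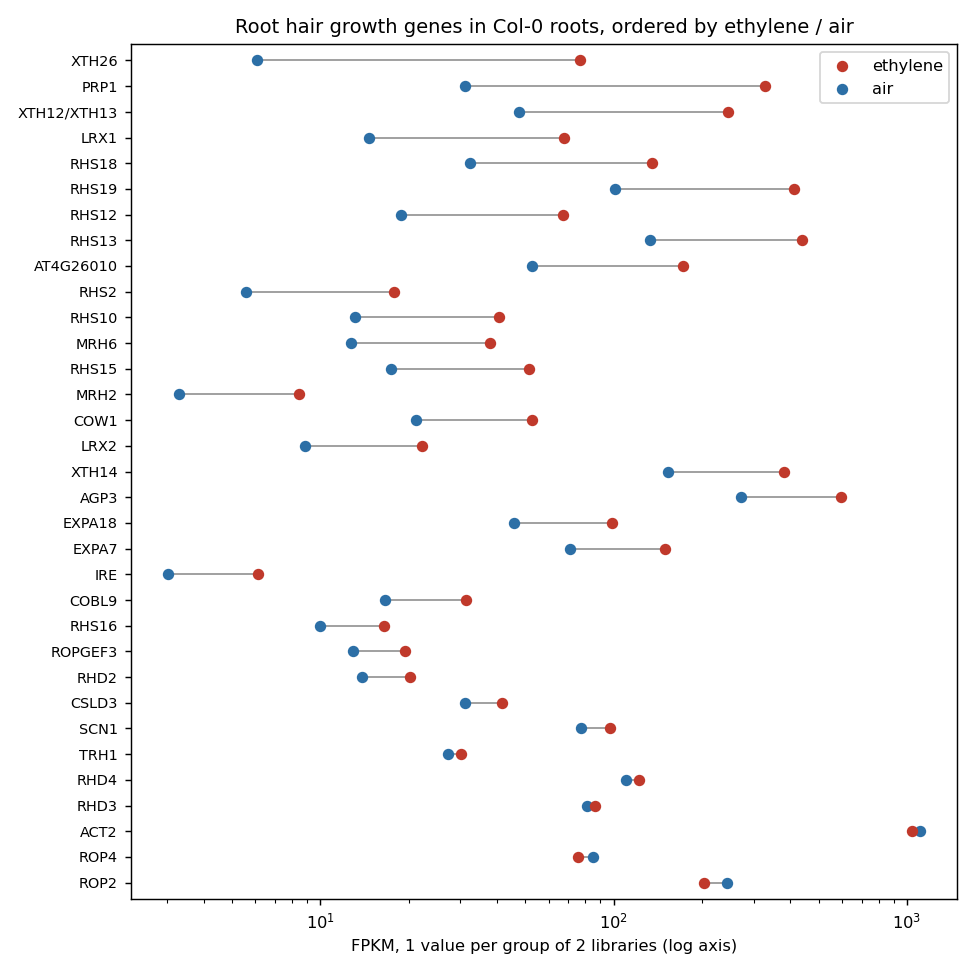
Each line is 1 locus of the root hair growth list, ordered by the ratio of ethylene to air, with the FPKM in ethylene in red and in air in blue on a log axis, 1 pooled value per group. *XTH26* at the top was at 77.0 FPKM in ethylene and 6.10 FPKM in air, and the bottom locus, *ROP2*, at 203 and 243 FPKM.

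Of 17 transcription factors and other regulators of the root epidermis, 4 rose, 1 fell and 12 did not reach 2-fold. Of all members 10.2% rose and 9.14% fell, so 1 fall among 17 is not set apart from these. *RSL4*, the bHLH factor that sets hair length, rose to 43.3 FPKM in ethylene, against 14.3 FPKM in air, and *LRL3*, another bHLH factor of hair development, to 89.5 against 42.5 FPKM. AT5G43175, a bHLH gene of the *RSL4* class, was at 10.0 FPKM in ethylene and listed at 0 in air. *RSL1* was at 1.15 FPKM in ethylene and 0.0920 FPKM in air, close to the 1 FPKM minimum. *RHD6*, which acts before *RSL4*, was at 10.8 FPKM in ethylene and 8.98 FPKM in air. Of the genes that pattern hair and non-hair cells, the MYB gene *WER* fell to 2.92 FPKM in ethylene, against 7.79 FPKM in air, while *GL2* was at 1.77 and 2.18 FPKM, *CPC* at 8.20 and 11.1 FPKM and *TTG1* at 32 and 27 FPKM. *RSL4* and *LRL3*, which act on hair growth, thus rose, and of these patterning genes *WER* alone passed 2-fold.

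Most root hair loci that rose did so in *cbp20* roots as well. Of the 21 loci that rose in Col-0 roots, 20 rose in *cbp20* roots, the other being *AGP3* (597 and 272 FPKM in Col-0, 940 and 522 FPKM in *cbp20*, ethylene and air). Over the 30 loci tested in all of the 3 tables, the median log2 ratio was 1.31 in Col-0 roots, 1.25 in *cbp20* roots and -0.09 in Col-0 shoots. In Col-0 shoots 3 of the 30 rose and 4 fell.

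Of 16 loci for ethylene receptors and signalling, 6 rose, 0 fell and 10 did not reach 2-fold, and the same 6 rose in *cbp20* roots. The receptor genes *ERS2* (19.6 FPKM in ethylene and 2.16 FPKM in air), *ERS1* (167 and 41.1 FPKM) and *ETR2* (30.5 and 7.86 FPKM) rose. The other receptor genes did not, with *EIN4* at 13.6 FPKM in ethylene and 14.1 FPKM in air and *ETR1*, at a joined locus, at 26.4 and 18.7 FPKM. *RTE1*, a membrane protein that promotes ETR1 function, rose to 35.8 FPKM in ethylene, against 4.55 FPKM in air. *CTR1*, the kinase below the receptors, rose 2.62-fold and *EBF2*, whose F-box protein directs EIN3 to breakdown, 2.52-fold. The central positive regulators were within 2-fold, *EIN2* at 50.5 FPKM in ethylene and 35.7 FPKM in air, *EIN3* at 85.3 and 64.2 FPKM and *EIL1* at 32.9 and 23.5 FPKM. The receptors, CTR1 and EBF2 are known as negative regulators of the pathway.

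Ethylene synthesis genes moved in opposite directions. Of 12 loci tested, 4 rose and 2 fell, beside 10.2% and 9.14% of all members. The ACC oxidases, which carry out the last step, included *ACO1* (21.9 FPKM in ethylene and 3.54 FPKM in air), *EFE* (189 and 57.5 FPKM) and *ACO5* (483 and 236 FPKM) among the genes that rose. AT1G12010, annotated in the same oxidase family, was at 17.5 FPKM in ethylene and 29.2 FPKM in air. Among ACC synthases, which carry out the step before, *ACS5* fell to 2.52 FPKM in ethylene, against 10.2 FPKM in air, and *ACS7* to 0.571 against 4.88 FPKM. *ACS9* rose to 1.63 FPKM in ethylene, against 0.750 FPKM in air, both low values. The same 6 loci were called in the same direction in *cbp20* roots.

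Of 31 ERF and EDF loci, 11 rose and 4 fell, beside 10.2% and 9.14% of all members. These encode AP2-domain transcription factors, only some of which are known to act downstream of EIN3. *ERF1*, a direct EIN3 target, rose to 21.6 FPKM in ethylene, against 2.02 FPKM in air. *EDF3* and *TEM1*, of the RAV-type EDF genes, were at 44.9 FPKM in ethylene and 11.7 FPKM in air and at 135 and 51.4 FPKM. *ESE3* (12.3 and 1.87 FPKM), *ERF11* (14.0 and 4.20 FPKM) and *RAP2.6L* (63.2 and 21.7 FPKM) rose too. The 4 that fell were *PUCHI*, a factor of lateral root primordia, at 0.815 FPKM in ethylene and 1.83 FPKM in air, *ERF4*, a repressor, at 44.5 FPKM in ethylene and 113 FPKM in air, *ERF104* at 45.4 and 97.7 FPKM and *ERF105* at 8.38 and 18.7 FPKM. *RAP2.12*, the hypoxia factor, was at 277 FPKM in ethylene and 278 FPKM in air. *ABR1* was at 1.43 FPKM in ethylene and practically at 0 in air, so no fold is given. Of the 11 that rose, 7 rose in *cbp20* roots, and of the 4 that fell, 1 fell there.

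All 3 organ-size genes of the *ARGOS* family rose, in Col-0 roots as in *cbp20* roots and Col-0 shoots. *ARGOS* (chromosome 3, 22129593 to 22133583) was at 278 FPKM in ethylene and 7.15 FPKM in air, *ARL* at 168 and 7.51 FPKM, and *OSR1* (AT2G41230) at 26.7 and 0.870 FPKM. These are membrane proteins that dampen ethylene sensitivity, and they were among the largest rises of the root.

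**Figure D3:**
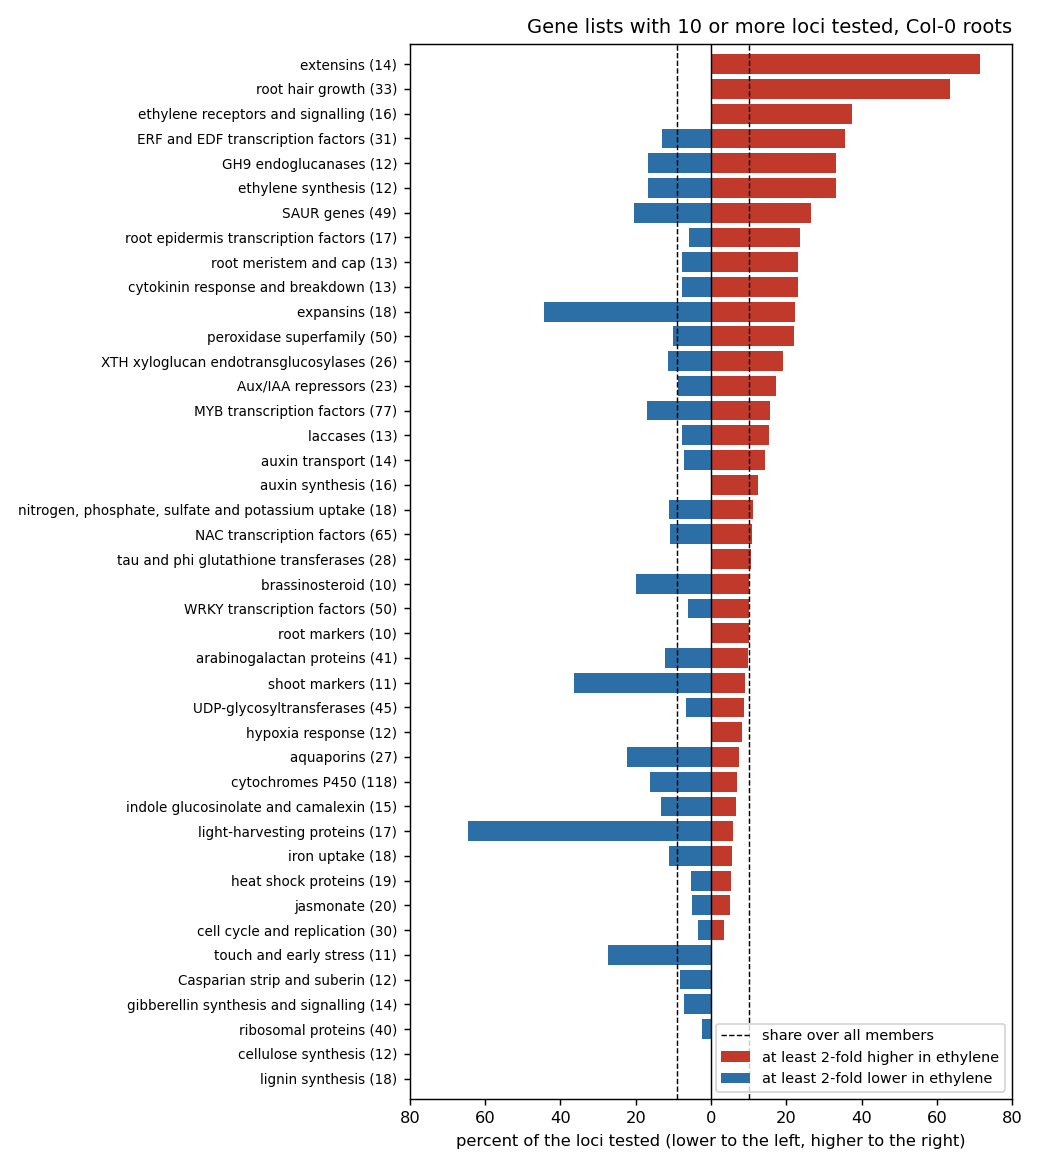
Bars give, for each gene list with at least 10 loci tested (number in parentheses), the percent of loci that rose in red to the right and that fell in blue to the left in Col-0 roots. Dashed lines mark 10.2% and 9.14%, the shares over all members. Extensins, root hair growth and ethylene signalling reach farthest to the right, and light-harvesting proteins and expansins farthest to the left.

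Cell wall families did not move as 1 block. Extensins, rod-like wall glycoproteins that are cross-linked by peroxidases, rose at 10 of 14 loci and fell at 0, with a median log2 ratio of 2.00. The family has 29 genes here, of which 9 have names that stand at several loci and were not counted. *EXT6* was at 68.0 FPKM in ethylene and 6.20 FPKM in air, *EXT12* at 159 and 21.3 FPKM and *HRGP1* at 282 and 81.5 FPKM. The neighbouring extensin-like genes AT4G08400 and AT4G08410 were at 36.0 FPKM in ethylene and 5.13 FPKM in air and at 26.5 and 4.01 FPKM. Such genes have repeats in common, so reads could be split between them. *LRX3*, an extensin of growing root and shoot cells, did not reach 2-fold. All 10 rose in *cbp20* roots, and in Col-0 shoots 0 of 13 extensin loci tested in the 3 tables rose and 1 fell.

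Expansins, which loosen walls at acid pH, split by member. Of 18 loci, 4 rose and 8 fell, where 9.14% of all members fell. The expansins of root hairs, *EXPA7* (149 FPKM in ethylene and 70.8 FPKM in air) and *EXPA18* (98.4 and 45.7 FPKM), rose. *EXPA8* (chromosome 2, 16948863 to 16950557) fell 8.14-fold to 4.40 FPKM in ethylene, against 35.8 FPKM in air. *EXPB1* fell to 8.24 against 61.1 FPKM, *EXPA17* to 6.65 against 48.2 FPKM, *EXPA4* to 9.05 against 39.1 FPKM and *EXPA14* to 10.4 against 38.2 FPKM. *EXPA15* (3.84 FPKM in ethylene and 12.9 FPKM in air) and *EXPB3* (4.41 and 14.2 FPKM) fell also. Of these 8, 7 fell in *cbp20* roots, and *EXPA6* was at 2.91 and 5.4 FPKM there. *EXPA10*, at 2.58 FPKM in ethylene and 0.546 FPKM in air, rose in Col-0 roots and fell in *cbp20* roots, where it was at 2.15 and 5.02 FPKM.

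Among xyloglucan endotransglucosylases, which cut and rejoin the glucan chains between cellulose fibres, 5 of 26 loci rose and 3 fell. Of all members 10.2% rose and 9.14% fell. The joined *XTH12*/*XTH13* locus was at 246 FPKM in ethylene and 47.5 FPKM in air, *XTH14* at 381 and 154 FPKM and *XTH7* at 27.9 and 6.27 FPKM. *XTH11* was at 9.09 FPKM in ethylene and close to 0 in air. *XTH21* fell to 7.03 FPKM in ethylene, against 40.2 FPKM in air, and *XTH8* to 34.8 against 91.2 FPKM. *XTH25* was listed at 0 in ethylene and at 1.21 FPKM in air. Endoglucanases of the GH9 family moved both ways, with *GH9C1* at 83.7 FPKM in ethylene and 22.9 FPKM in air and *GH9B13* at 15.2 and 83.8 FPKM. In all, 4 of 12 GH9 loci rose and 2 fell.

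Of 50 loci annotated as peroxidases, 11 rose and 5 fell, beside 10.2% and 9.14% of all members. AT5G19890 showed the largest rise of them, to 121 FPKM in ethylene against 3.96 FPKM in air. AT3G49960 was at 173 FPKM in ethylene and 22.6 FPKM in air, AT1G49570 at 306 and 70.3 FPKM, AT5G64120 at 755 and 174 FPKM and AT4G26010 at 172 and 52.5 FPKM. The most abundant of those that rose, AT5G64100, was at 2334 FPKM in ethylene and 1102 FPKM in air. AT5G14130 fell to 24.2 FPKM in ethylene, against 68.5 FPKM in air, and AT2G18980 to 124 against 273 FPKM. Of the 11 that rose, 7 rose in *cbp20* roots, whereas AT1G14550, at 3.91 and 1.8 FPKM in Col-0, fell there (0.664 and 5.76 FPKM).

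Other wall proteins showed no common direction. Of 41 arabinogalactan protein loci, 4 rose and 5 fell, shares close to those over all members. *FLA6* was at 184 FPKM in ethylene and 37.1 FPKM in air and *AGP21* at 439 and 1115 FPKM. Of 13 laccases, which oxidize lignin precursors, *LAC17* (80.1 and 31.7 FPKM) and *LAC2* (32.3 and 15.9 FPKM) rose and *LAC12* (0.456 and 2.18 FPKM) fell. Lignin synthesis (18 loci) and cellulose synthesis (12 loci) had 0 loci past 2-fold in either direction, with median log2 ratios of -0.04 and 0.28.

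**Figure D4:**
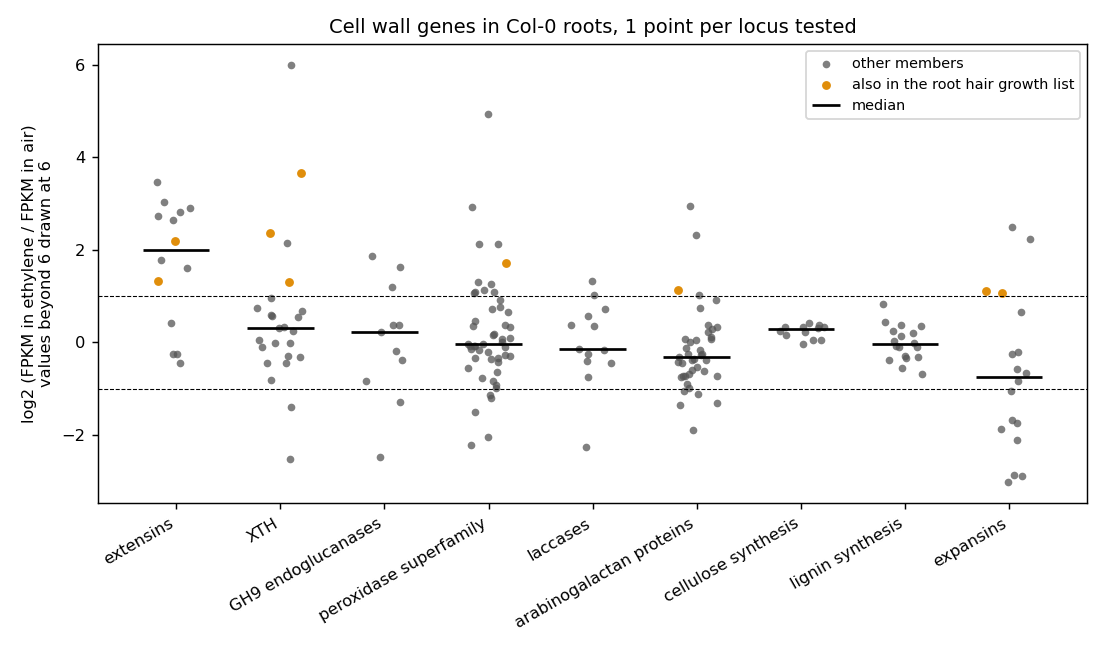
Each point is 1 locus of a cell wall family with both values above 0, its height the log2 ratio of ethylene to air. Bars are medians, dashed lines mark 2-fold, and orange points are also in the root hair growth list. Extensins lie mostly above the upper line, cellulose and lignin genes between the lines, and expansins mostly below 0.

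Of 27 loci for aquaporins, the water channels of membranes, 6 fell and 2 rose, where 9.14% and 10.2% of all members did. The other 19 did not reach 2-fold, and the median log2 ratio was -0.49. The plasma membrane channels *PIP3* (491 FPKM in ethylene and 1367 FPKM in air), *PIP1;4* (45.1 and 144 FPKM) and *PIP2E* (7.52 and 20.1 FPKM) fell, and so did *NIP1;2* (8.62 and 18.9 FPKM). *TIP3;1*, a vacuolar channel best known from seeds, was at 0.639 FPKM in ethylene and 7.18 FPKM in air. *PIP1B*, the most abundant, was at 2327 FPKM in ethylene and 4199 FPKM in air and stayed under 2-fold. *NIP2;1* and *NIP6;1*, which rose, were low at 2.15 and 7.31 FPKM in ethylene and 0.649 and 2.79 FPKM in air. All 6 that fell also fell in *cbp20* roots.

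Among 16 auxin synthesis loci 2 rose, the flavin monooxygenase genes *YUC9* (5.01 FPKM in ethylene and 1.8 FPKM in air) and *YUC7* (1.57 and 0.212 FPKM). Over all members 10.2% rose and 9.14% fell. Of 14 transport loci, the kinase genes *PID* (12.3 and 1.92 FPKM) and *WAG2* (23.1 and 4.73 FPKM), whose products phosphorylate PIN carriers, rose, and the influx carrier gene *LAX2* (3.65 and 8.31 FPKM) fell. All 3 were called in the same direction in *cbp20* roots. Of 23 Aux/IAA repressor loci, 4 rose and 2 fell, with *IAA30* at 6.87 FPKM in ethylene and 0.474 FPKM in air. The *SAUR* family, small auxin-responsive genes, moved both ways at 23 of 49 loci, 13 up and 10 down. AT5G20820 of this family was at 164 FPKM in ethylene and 20.6 FPKM in air and AT1G17345 at 97.8 and 10.6 FPKM. Only 5 of its loci past 2-fold reached 10 FPKM in the higher group, 4 of them up.

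In the cytokinin list 3 of 13 loci rose and 1 fell, where 10.2% and 9.14% of all members did. The response regulators *ARR16* (8.03 FPKM in ethylene and 0.471 FPKM in air) and *ARR17* (9.57 and 1.93 FPKM) rose. Of 10 brassinosteroid loci, the synthesis genes *DWF4* (11.7 and 31.1 FPKM) and *BR6OX1* (1.77 and 7.33 FPKM) fell, and *BES1* (54.2 and 25.1 FPKM), a transcription factor of that pathway, rose. Gibberellin had 0 loci that rose and 1 of 14 that fell, *GA20OX3* at 0.345 FPKM in ethylene and 1.90 FPKM in air. Jasmonate had 1 of 20 up (*JAZ8*, 1.17 FPKM in ethylene and listed at 0 in air) and 1 down (*JAZ4*, 0.450 and 2.02 FPKM). In these last lists no called gene reached 3 FPKM in either group.

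In the root meristem list 3 of 13 loci rose and 1 fell, beside 10.2% and 9.14% of all members. *UPB1*, a bHLH factor of the transition from division to elongation, was at 194 FPKM in ethylene and 83.1 FPKM in air, and it rose in *cbp20* roots and Col-0 shoots as well. *BRN2*, a NAC factor of the root cap, fell to 1.94 FPKM in ethylene, against 4.71 FPKM in air. Of 30 cell cycle and replication loci, 1 rose (*CYCA2;1*, 1.5 and 0.212 FPKM) and 1 fell (*PCNA1*, 4.35 and 14.0 FPKM), both shares below those over all members.

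Of 12 Casparian strip and suberin loci 1 fell (8.33%), beside 9.14% of all members. *CYP86B1*, a P450 of suberin synthesis, fell to 11.4 FPKM in ethylene, against 37.2 FPKM in air, and the other 11 loci did not reach 2-fold. The suberin-linked transporter *ABCG6* was at 26.8 FPKM in ethylene and 89.2 FPKM in air, *ABCG16* at 6.77 and 13.9 FPKM and *ABCG1* at 2.24 and 7.48 FPKM. Their relatives *ABCG2* (4.30 and 7.51 FPKM) and *ABCG20* (8.92 and 12.2 FPKM) did not reach 2-fold. Grouped by RefSeq product name, a grouping made after the values were seen and from which groups with many falls are given here, the family of these transporters had 5 of 13 loci down and 1 up. Lipid-transfer proteins had 13 of 46 down and 4 up, and GDSL lipases 7 of 25 down and 1 up. Glycine-rich proteins, a loose group of repetitive and often secreted proteins, had 14 of 32 down and 0 up, where 8.2% of single-gene loci fell. Among these AT4G30460 was at 41.2 FPKM in ethylene and 173 FPKM in air, AT4G33610 at 102 and 332 FPKM and *GRP5* at 2.87 and 17.6 FPKM. Some of them were far higher in Col-0 shoots, with *GRP5* at 144 FPKM in ethylene and 146 FPKM in air there, *GRP23* (AT2G32690) at 304 and 402 FPKM (6.29 and 23.5 FPKM in roots) and AT4G29020 at 754 and 1293 FPKM (9.09 and 34.7 FPKM in roots). The summed shoot markers of Col-0 roots were also lower in ethylene (199 FPKM) than in air (328 FPKM), and their part in these falls was not tested. *EARLI1*, a proline-rich lipid-transfer protein, went the other way, at 271 FPKM in ethylene and 28.3 FPKM in air. Cytochromes P450 had 19 of 118 loci down and 8 up, beside 9.14% and 10.2% of all members. *CYP71A16*, of the marneral pathway, was at 109 FPKM in ethylene and 384 FPKM in air.

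*ZAT12*, a zinc finger gene of early stress responses, was at 23.6 FPKM in ethylene and 90.4 FPKM in air, and with *CBF2* (0.899 and 4.02 FPKM) and *CBF3* (0.228 and 2.23 FPKM) it made 3 of 11 loci that fell in the touch and early stress list. *HY5*, the bZIP factor of light responses, fell to 13.7 FPKM in ethylene, against 48.5 FPKM in air, and to 13.2 against 45.2 FPKM in *cbp20* roots. With it fell the flavonoid enzyme *F3H* (0.372 and 6.13 FPKM), and *FLS1* was listed at 0 in ethylene and at 2.40 FPKM in air. In all 4 of 7 loci of the flavonoid list fell and 2 rose, beside 9.14% and 10.2% of all members. The 4 include the regulator *HY5*, which alone reached 10 FPKM, and *UGT78D2*, at a joined locus (1.92 and 5.34 FPKM). Of 18 loci for nitrogen, phosphate, sulfate and potassium uptake, 2 rose and 2 fell, beside 10.2% and 9.14% of all members. Those that fell were the ammonium transporters *AMT1;1* (56.0 and 125 FPKM) and *AMT1;2* (18.9 and 44.1 FPKM). *NAI1*, the bHLH factor of ER bodies, fell to 43.3 FPKM in ethylene, against 117 FPKM in air. The haemoglobin gene *HB1*, the only call among 12 hypoxia loci, rose to 76.9 FPKM in ethylene, against 28.2 FPKM in air.

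Of 17 light-harvesting loci, 11 fell and 1 rose, all at low levels for such genes. *CAB1* was at 27.9 FPKM in ethylene and 65.5 FPKM in air in roots, against 6031 and 6192 FPKM in Col-0 shoots. *LHCB3* was at 5.24 FPKM in ethylene and 18.1 FPKM in air and *LHB1B2* at 1.63 and 18.4 FPKM. In *cbp20* roots 3 of the 11 fell, and *CAB1* was at 236 FPKM in ethylene and 164 FPKM in air. The shoot markers moved with them. Their sum was 199 FPKM in ethylene and 328 FPKM in air in Col-0 roots and 698 and 655 FPKM in *cbp20* roots, and 9 of the 12 marker loci were lower in ethylene in Col-0 roots. 4 of the marker loci are light-harvesting loci themselves. Among the others *RBCS1A* was at 63.5 FPKM in ethylene and 93.9 FPKM in air and *RBCS1B*, at a joined locus, at 35.1 and 32.7 FPKM. *CUT1* (28.5 and 49.9 FPKM), *FDH* (21.0 and 36.8 FPKM), *PDF1* (8.94 and 12.9 FPKM) and *HLS1* (1.92 and 2.41 FPKM) were lower in ethylene. *ATML1* was higher (2.17 and 0.994 FPKM), and *STM* was listed at 0 in both. The part of shoot-derived RNA in the fall of the light-harvesting genes was not tested. In such bulk tissue fewer cells of a type and less RNA per cell cannot be told apart.

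Large transcription factor families moved both ways. MYB factors had 12 of 77 loci up (15.6%) and 13 down (16.9%), NAC factors 7 of 65 in each direction (10.8%) and WRKY factors 5 of 50 up and 3 down, beside 10.2% up and 9.14% down over all members. Those that rose at 50 FPKM or more in ethylene were *MYB27* (95.7 FPKM in ethylene and 19.96 FPKM in air), *RAX2* (68.0 and 24.4 FPKM), *NAC6* (107 and 18.2 FPKM), a factor of leaf senescence, and *WRKY75* (92.2 and 44.3 FPKM), a factor of phosphate starvation and root hairs. *MYB41* (2.01 and 14.2 FPKM) and *MYB53* (4.60 and 17.6 FPKM), known from suberin synthesis, fell. Ribosomal proteins, a set of abundant genes, had 0 of 40 loci up and 1 down.

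The 15 largest rises among loci of 1 gene with at least 10 FPKM in the higher group were mostly found again. Of the 15, 11 rose in *cbp20* roots and 0 fell there, and 10 rose in Col-0 shoots and 2 fell. *DXPS1*, annotated as a synthase of the plastid isoprenoid pathway, was at 11.5 FPKM in ethylene and 0.148 FPKM in air, a 77.4-fold rise from a low value in air. *GSTU3*, a glutathione transferase, was at 17.4 and 0.260 FPKM. Its listed interval is also that of the joined *GSTU4*/*GSTU2*/*GSTU1* locus (766 and 397 FPKM), and how reads were split between them was not tested. *BCA3*, a beta carbonic anhydrase (chromosome 1, 8395557 to 8399749), was at 80.5 FPKM in ethylene and 2.06 FPKM in air, while the other 4 carbonic anhydrase loci stayed within 2-fold. AT2G39980, an acyltransferase, was at 403 FPKM in ethylene and 12.2 FPKM in air, and AT5G40590, a zinc-binding C1 domain protein, at 175 and 3.92 FPKM. AT1G63600, related to receptor-like kinases, was at 21.1 and 1.1 FPKM, and AT1G28260, annotated as an Est1-type protein, at 103 and 5.38 FPKM. AT3G13240 (121 and 4.51 FPKM), AT2G21185 (16.5 and 0.619 FPKM), AT1G62350 (62.2 and 2.77 FPKM) and AT5G03285 (102 and 5.05 FPKM) rose in Col-0 roots but did not rise in *cbp20* roots, where AT1G62350 lay under 1 FPKM.

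Of the 15 largest falls, 5 fell in *cbp20* roots and 6 rose there. AT4G11020 was at 0.182 FPKM in ethylene and 13.4 FPKM in air, and at 1.17 and 10.4 FPKM in *cbp20* roots. *NDL3*, an N-MYC downregulated-like gene, was at 6.74 FPKM in ethylene and 433 FPKM in air, and AT3G14470, an NB-ARC gene, at 7.01 and 153 FPKM. AT5G66053 was close to 0 in ethylene and at 707 FPKM in air, and AT4G39363, a snoRNA, at 1.61 FPKM in ethylene and 51.3 FPKM in air. AT3G30300, an O-fucosyltransferase gene, was at 8.61 FPKM in ethylene and 639 FPKM in air in Col-0 roots and at 14.1 and 13.3 FPKM in *cbp20* roots. AT3G44765 (0.844 and 61.9 FPKM) and AT3G09863 (17.7 FPKM in air) were under 1 FPKM in *cbp20* roots. AT5G60285, a transfer RNA gene, was at 65.1 FPKM in ethylene and 2239.99 FPKM in air.

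A further 24 single-gene loci were kept apart, since a root value of 100 FPKM or more exceeded by 100 times the middle of all 8 groups for that gene. AT1G48650, a helicase gene, was at 48290 FPKM in ethylene and 12.4 FPKM in air, with 7.34 and 10.2 FPKM in *cbp20* roots. *scpl48*, a carboxypeptidase gene, was at 52478 and 135 FPKM and AT5G44730 at 44833 and 5.46 FPKM. AT2G02410 was far out in air, with 3.19 FPKM in ethylene and 12271 FPKM in air, and AT4G37190 likewise with 4.84 and 13208 FPKM. With 1 value per group, a single library behind such a value could not be looked for.

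Since *cbp20* roots were separate samples, they show how often a 2-fold change of Col-0 roots came back. Of the members that rose and were tested in *cbp20* roots, 695 of 1656 (42.0%) rose there and 234 (14.1%) fell, and of those that fell 609 of 1505 (40.5%) fell and 172 (11.4%) rose. Opposite calls were rarer at single-gene loci. With at least 10 FPKM in the higher group, 96 of 762 rises fell in *cbp20* roots over all members, against 9 of 455 at single-gene loci. For falls that rose there, the counts were 76 of 670 and 16 of 428. The 695 shared rises were 50% of the rises in *cbp20* roots among loci tested in both, and the 609 shared falls 40.2% of its falls. The background in *cbp20* roots was 8.76% of members up and 9.57% down. The share that came back grew with the level for rises, with 29.4% at 1 to 2 FPKM, 51.8% at 20 to 50 FPKM and 60.8% at 100 FPKM or more in the higher group. For falls these shares were 38.5%, 46.8% and 45.7%. In Col-0 shoots 32.3% of the rises and 43.1% of the falls came back, where 9.77% of the members rose and 14.7% fell. Opposite calls there were 20.6% of the rises, which fell, and 14.1% of the falls, which rose.

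Across 9600 single-gene loci with at least 10 FPKM, the log2 ratios of Col-0 roots and *cbp20* roots had a Pearson's r of 0.59 and a Spearman's rho of 0.62. For Col-0 shoots r was 0.33 and rho 0.27 over 9490 loci. These describe genes and not replicates, and the tables were normalized separately. Further, 11756 members had at least 10 FPKM in the higher group and a value above 0 in air in both genotypes. Of these, 1408 were at least 2-fold apart between ethylene and air in Col-0 roots, and 954 between *cbp20* and Col-0 roots in air. The higher group was taken from Col-0 roots alone, so loci high only in *cbp20* roots could not enter. The 954 also crosses separately normalized tables, so the 1408 and the 954 cannot be weighed against each other.

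**Figure D5:**
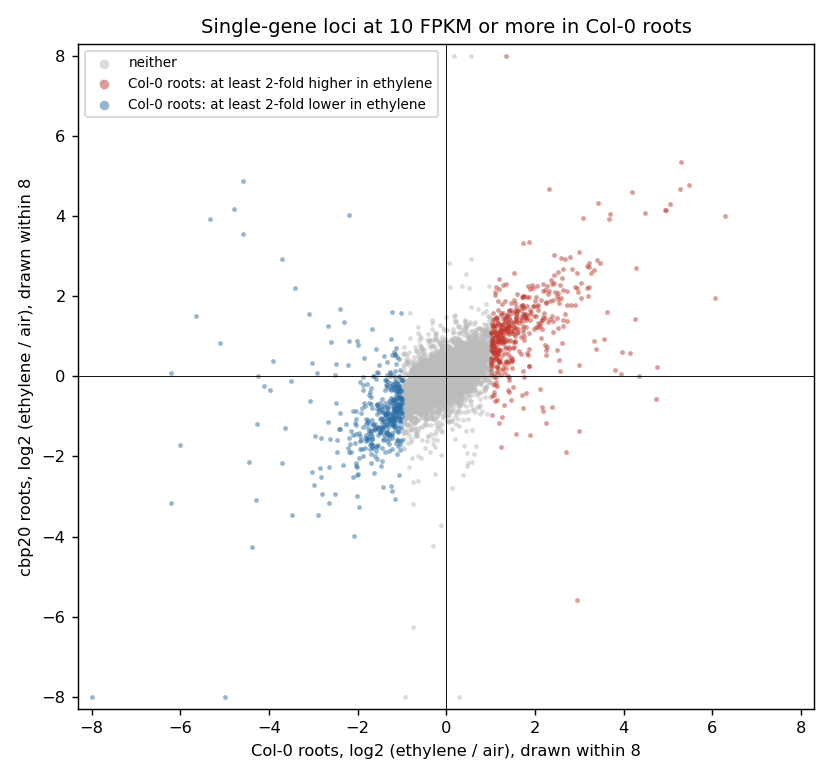
Each point is 1 of 9600 single-gene loci with at least 10 FPKM in the higher group of Col-0 roots, with the log2 ratio of ethylene to air in Col-0 roots on the horizontal axis and in *cbp20* roots on the vertical axis. Red points rose and blue points fell in Col-0 roots. Of 455 red points 270 rose in *cbp20* roots and 9 fell, and of 428 blue points 207 fell and 16 rose.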

How the data were processed

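Samples were grouped by the genotype, tissue and treatment in the sample labels. The authors aligned reads to TAIR10 with TopHat2 2.0.9 and computed FPKM with Cuffdiff 2.2.1, per the labels' processing notes and the methods. The deposited values are FPKM, 1 per group of 2 libraries, in 4 tables normalized separately. The tables also hold the authors' own fold changes and p-values, which were not used. The sources used here do not give read totals per library. Depth is therefore unknown and no interval of an FPKM is given.

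Ratios of ethylene to air were computed with Python 3.11 and pandas from the plain FPKM, with a minimum of 1 FPKM in either group and of 2-fold. Rows naming no gene held 78.9% of the summed FPKM in ethylene and 72.6% in air and were left out. A locus can join several genes (1169 members), and 2022 members carry a name that stands at several loci. Lists counted each locus once and left out names at several loci. The shares of 10.2% and 9.14% over all members, set beside the lists, include such names. Among loci of 1 gene the shares were lower, at 8.33% up and 8.2% down. The 30 gene lists and 21 families were matched to RefSeq names, and the families were narrowed by RefSeq product after the tables had been seen. Named genes were the 15 largest rises and 15 largest falls at loci of 1 gene with both values above 0 and at least 10 FPKM in the higher group. Far values (at least 100 FPKM and 100 times the median over 8 groups) were named apart. In each list the called members, or the 8 with the largest ratios, and members whose role is described were named in part. Members and lists were chosen with earlier results of these data known. The calls were tested on simulated data. Alternatives were other folds, pseudocounts, minima, centring and sets of loci.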

Additional observations from a re-analysis of the deposited data

Results flagged for a closer look

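Some named genes changed at least 2-fold in opposite directions in Col-0 and *cbp20* roots. The difference itself was not tested, since each group is 1 pooled value. *MYB10* had a log2 ratio of -7.78 in Col-0 roots (0.562 FPKM in ethylene and 124 FPKM in air) and of 7.38 in *cbp20* roots (103 and 0.621 FPKM). *CHX18*, a cation exchanger, had a log2 ratio of -4.79 in Col-0 roots and 4.18 in *cbp20* roots. AT2G01130, a helicase gene, stood at -4.59 in Col-0 roots and 4.88 in *cbp20* roots on the same scale, AT5G10590 at -4.58 and 3.56, AT1G12290, a disease resistance gene, at -5.33 and 3.93, and *JOSL* at -5.64 and 1.52. In the other direction the arabinogalactan protein gene *AGP12* had a log2 ratio of 2.95 in Col-0 roots (65.0 and 8.43 FPKM). In *cbp20* roots the ratio was -5.59 (1.15 and 55.4 FPKM). Its shoot values also reached practically 0, with 5.10 FPKM in ethylene and 2.24e-05 FPKM in air in Col-0. In *cbp20* shoots *AGP12* was at 4.12e-05 and 5.97 FPKM. Whether these estimates are stable was not tested. *CYP81F2*, a P450 of indole glucosinolates, had 1.56 in Col-0 roots and -1.44 in *cbp20* roots.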

How the results depend on the processing

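The counts of calls followed the fold and the minimum. Against 1998 rises and 1795 falls at 2-fold, there were 3516 and 3207 at 1.5-fold, 1197 and 976 at 3-fold, 1075 and 1010 with at least 1 FPKM in both groups, and 861 and 736 with at least 10 FPKM in the higher group. At 3-fold 11 root hair growth loci rose, and 2 aquaporin and 5 light-harvesting loci fell. At 1.5-fold 11 aquaporin loci fell, and with at least 10 FPKM 7 light-harvesting loci fell. The share of rises found again in *cbp20* roots was 28.01% at 1.5-fold, 50.71% at 3-fold, 49.35% with a pseudocount of 1 and 52.1% with at least 10 FPKM, and that of falls was 28%, 47.52%, 44.99% and 44.33%. The counts of ethylene signalling loci that rose (4 to 6), extensins that rose (9 to 11) and expansins that fell (7 to 10) stayed within 1.5 times under each alternative run, while 2 expansins rose at 3-fold. Leaving out the far values was chosen after seeing the data. No paired analysis was possible because the tables hold 1 pooled value per group, and leaving out a replicate was not possible for the same reason.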

Other observations

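Several gene groups not described so far are given here for Col-0 roots, beside 10.2% of all members up and 9.14% down. Called loci were few in each, so none of these groups is set apart from all members. Of 28 tau and phi glutathione transferases, enzymes of detoxification, 3 rose and 0 fell. *GSTF2* was at 1489 FPKM in ethylene and 568 FPKM in air and *GSTF3* at 105 and 29.7 FPKM, and 1 of the 3 also rose in *cbp20* roots. Of 45 UDP-glycosyltransferases, 4 rose and 3 fell. Indole glucosinolate and camalexin genes, which make defence compounds, had 1 of 15 loci up and 2 down. Iron uptake had 1 of 18 up and 2 down, with *NAS2*, a nicotianamine synthase, at 21.7 FPKM in ethylene and 7.85 FPKM in air. Heat shock proteins had 1 of 19 loci in each direction, and defence proteins 1 of 7 in each direction, with *PDF1.1* at 33.1 FPKM in ethylene and 77.7 FPKM in air.

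Among calcium-dependent protein kinases, grouped by product name after the values were seen, 4 of 14 loci rose and 0 fell. For this group and the next, the shares over single-gene loci were 8.33% up and 8.2% down. *CPK4* was at 37.0 FPKM in ethylene and 11.6 FPKM in air. *CPK25* (3.26 and 0.945 FPKM), *CPK19* (2.78 and 1.21 FPKM) and *CPK33* (3.61 and 1.66 FPKM) were low. Of the 4, *CPK25* alone also rose in *cbp20* roots. VQ motif proteins, partners of WRKY factors, had 7 of 25 loci up and 3 down, with AT2G22880 at 164 FPKM in ethylene and 22.9 FPKM in air.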
